A study of Mus musculus with 89 samples.

Results

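Quiescent neural stem cells (qNSC) of the adult mouse dentate gyrus were described here from single-cell RNA sequencing. The members are the cells that the authors' deposited annotation places in the class qNSC, 60 of the 89 cells of the series. The other classes are aNSC with 18 cells and IPC with 11 cells, read here as activated neural stem cells and intermediate progenitor cells. By the age of the animals, 32 of the 60 cells are labelled 2 months and 28 are labelled 4.5 months. All mice were homozygous Nestin:CFPnuc animals on C57BL/6, of the strain named B6.Cg-Tg(Nes-CFP)1Enik/J, in which the Nestin promoter drives a cyan fluorescent protein to the nucleus, and no treatment is given. Dissected dentate gyri were dissociated, dead cells were stained with propidium iodide, and single cells were sorted and amplified one by one with a full-length kit. No label names the animal of a cell, so each age is 1 sample. Values over cells show the spread between cells and not between animals, and no difference was tested.

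Adult neural stem cells of the dentate gyrus are radial cells of the subgranular zone that share much of their gene expression with astrocytes. Most of them rest outside the cell cycle. An activated stem cell divides and gives rise to intermediate progenitors and then to granule neurons. Quiescence in these cells has been tied to lipid handling, to signals of the Notch and BMP pathways and to low protein synthesis, which is the reason that these gene groups are given below.

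A qNSC cell had a median of 918277 counts (234608 to 1486350) and reads of a median of 3713.5 genes (2156 to 5685). The medians were 3848 genes at 2 months and 3549.5 genes at 4.5 months, against 4768 genes in aNSC and 4647 genes in IPC cells. Thinned to 400000 reads, the medians were 3425.5 genes in qNSC, 4317 in aNSC and 4046 in IPC cells, with 4, 3 and 1 shallower cells left out. No 2 cells of the series held identical values. The 2-month qNSC cells and the 4.5-month qNSC cells differed in sex-linked reads. A Y-linked gene had at least 10 reads in 24 of 32 cells at 2 months and in 0 of 28 at 4.5 months, and the genes Xist or Tsix in 0 of 32 and 25 of 28. Age and sex therefore cannot be told apart in these cells.

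Reads of 8 markers of quiescent stem cells were counted, and most of the 60 cells carried each of them. The classes may rest on these same values, so the counts describe the cells and are no independent check of the label. Aldoc, Apoe, Clu, Hopx and S1pr1 had a read in all 60 cells, Id4 in 58, Gfap in 55 and Gjb6 in 52. At least 10 reads were found for Id4 in 57 cells, for Gfap in 53 (exact 95% interval 77.4 to 95.2% of cells) and for Gjb6 in 50 (71.5 to 91.7%). These intervals are exact binomial ones and cover counting error only, since the reads carry no molecular identifiers. Gfap, the intermediate filament that defines radial and astrocytic glia, was the lowest of the 8 in level, at a median of 240.0 TPM (0 to 3107). TPM is the deposited level per transcript length, of which each cell holds 1000000 in all. The highest was Apoe, which carries lipids between cells, at 42823 TPM. Reads of some markers were not limited to the class. In aNSC and IPC cells, Apoe was read in 18 of 18 and 11 of 11, Hopx in 12 and 9, and Gjb6 in 8 and 0.

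Markers of other cell types were searched with 9 panels, and a cell was taken to carry a type when at least 50% of its panel had at least 10 reads. The astrocyte panel passed in 58 of 60 qNSC cells, in 7 of 18 aNSC and in 0 of 11 IPC cells. These 15 markers are shared with mature astrocytes, a class the annotation does not hold. The summed level of the panel ran from 13278 to 46695 CPM (counts per 1000000 counts) over qNSC cells. Panels of oligodendrocyte precursors, progenitors and neuroblasts, neurons, microglia, mural cells and ependyma passed in 0 of 60 cells, for which the exact 95% interval reaches 5.96%. Among defining genes, Eomes (intermediate progenitors), Rbfox3 (neurons) and Mki67 (dividing cells) had no read in any qNSC cell. In 1 cell the oligodendrocyte panel passed and in 1 the endothelial panel, both at 4.5 months. Over the 12 oligodendrocyte markers the summed level had a median of 394 CPM and reached 51711 CPM in the cell that passed. The part of these 2 cells in the results is given as the values without them.

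Secreted proteins and lipid carriers led the absolute levels. Cst3, which encodes the secreted protease inhibitor cystatin C, had a median of 67574 TPM, from 20872 in the lowest to 191619 in the highest cell. It alone held a median of 6.76% of all TPM in a qNSC cell. Apoe followed at 42823 TPM (16067 to 99805), and Clu, the lipid-binding chaperone clusterin, at 14932 TPM (3253 to 31943). No qNSC cell had less than 3253 TPM of any of the 3, and the ranges of the ages overlapped for each of them. In mm10 these genes lie on chromosome 2 (Cst3, 148871722 to 148875692), chromosome 7 (Apoe, 19696109 to 19699188) and chromosome 14 (Clu, 65968483 to 65981547). Other secreted products were Cpe, a carboxypeptidase of peptide hormone processing, at 6795 TPM, Mfge8, a bridge for the uptake of dying cells, at 5492 TPM, and Sparcl1, a matrix protein, at 3256 TPM. Pla2g7, which hydrolyses platelet-activating factor, had 4293 TPM.

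Genes of metal binding and detoxification formed the next set of abundant transcripts. Mt1, a zinc- and copper-binding metallothionein, had a median of 11913 TPM (3251 to 26210), and Mt3, the form best known from brain, had 3798 TPM (259 to 11248). The glutathione transferases Gstm1 and Gstm5 had 5783 TPM and 5248 TPM, with 1 cell at 0 for Gstm5. They are paralogs, and 23.3% of the nonzero count values of Gstm1 were not whole (a share of reads was divided between genes), so their split is uncertain. Dbi, the acyl-CoA binding protein, had 8512 TPM and spanned 2149 to 33470 TPM. Aldoc, the glycolytic aldolase of astrocytes, had 8718 TPM, and Ckb, the brain creatine kinase that buffers ATP, had 8353 TPM.

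Among membrane proteins, the tetraspanins Tspan7, Cd81 and Cd63 had medians of 8965, 4758 and 3435 TPM. Gpm6a, a membrane glycoprotein of neurites, had 5022 TPM, Itm2b, an integral membrane protein cleaved by furin, 5170 TPM, and Cldn10, a claudin of tight junctions, 4277 TPM. Ntsr2, a neurotensin receptor found on astrocytes, had 4350 TPM. The remaining genes of the leading 25 were the nuclear noncoding RNA Malat1 (6096 TPM), Ppia (4536 TPM), Ubb (4450 TPM) and Hopx (3380 TPM). In Ppia and Ubb, 80% and 98.3% of nonzero count values were not whole, so reads shared with near-identical copies bear on their level. Hopx, an atypical homeodomain protein that marks quiescent stem cells, spanned the widest range of these genes among those read in every cell, from 15.8 to 10802 TPM.

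The same 25 genes led when each age was taken alone, when the mean replaced the median and when the 2 cells with other-type markers were left out. The 10 genes of highest mean held a median of 18.8% of all TPM in a qNSC cell (11.5 to 33.8%), and 100 genes held 39.9%. The 10 leading genes of aNSC cells held 7.20% there and those of IPC cells 9.54%. The leading genes of the class thus held a larger share in qNSC cells than those of the other classes did in theirs. The ranges over cells overlapped only between 11.5% and 11.9%. Shares of each cell's own leading genes are not given here, so mixing within a class can lower its value.

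**Figure D1:**
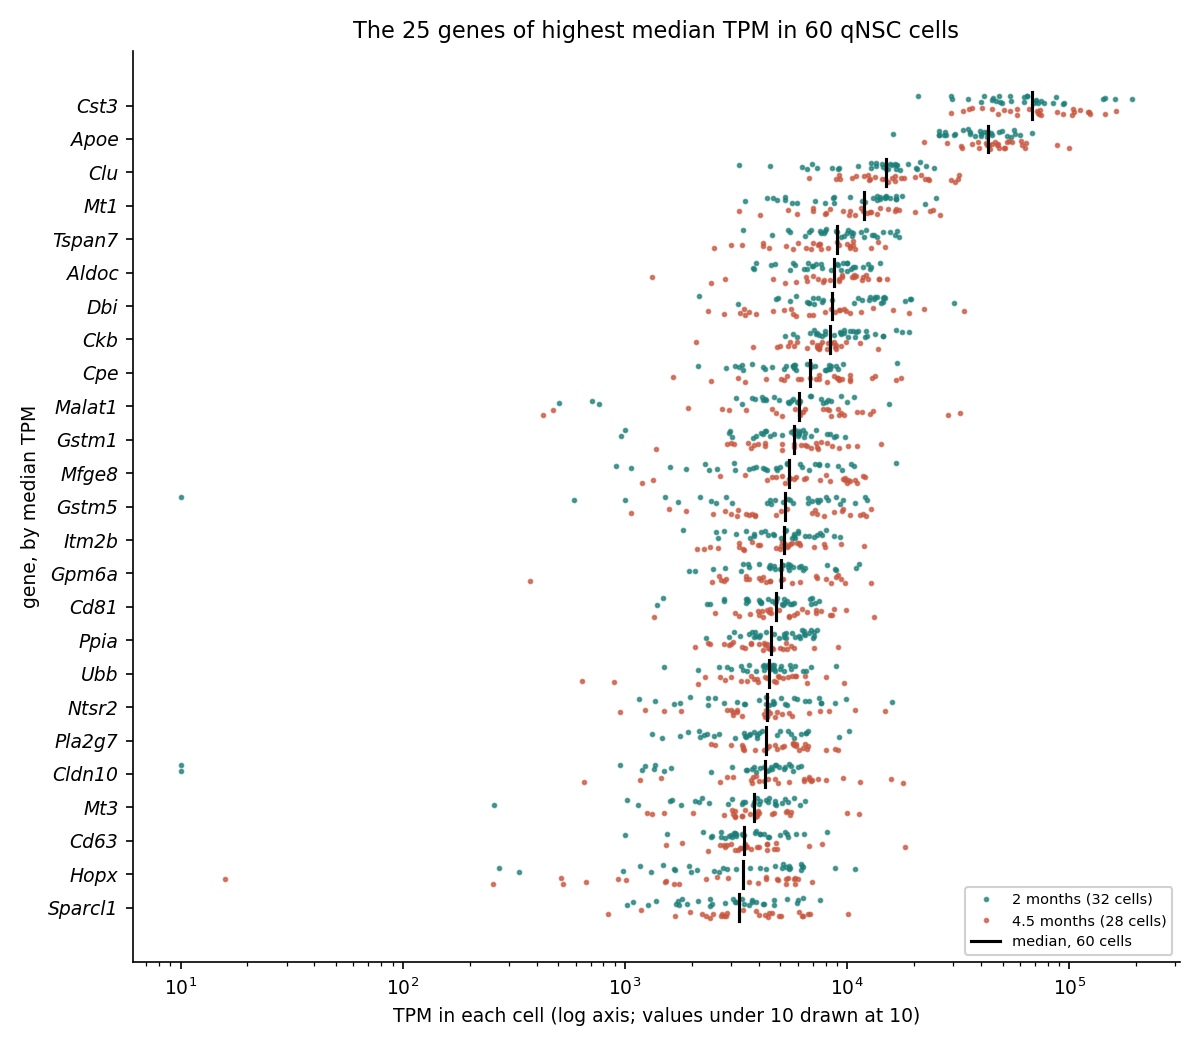
TPM (log axis) of the 25 genes of highest median TPM, 1 point per qNSC cell, with 32 cells of 2 months and 28 cells of 4.5 months in separate rows and the median of all 60 as a black line. Cst3 and Apoe stand above the rest, the ages overlap for every gene, and Hopx reaches down to 15.8 TPM.

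Detection across cells was next described, since a gene read in nearly every cell is part of what these cells share. Of 24411 genes in the table, 15101 had a read in at least 1 qNSC cell and 2418 of these in a single cell. Of the rest, 6566 genes were read in at least 20% of cells, 2473 in at least 50%, 424 in at least 90% and 267 in at least 95% (57 cells). All 60 cells had a read of 99 genes, and 61 genes had at least 10 reads in every cell. At the threshold of 57 cells lay 48 genes, and 54 genes were read in 56 cells.

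**Figure D2:**
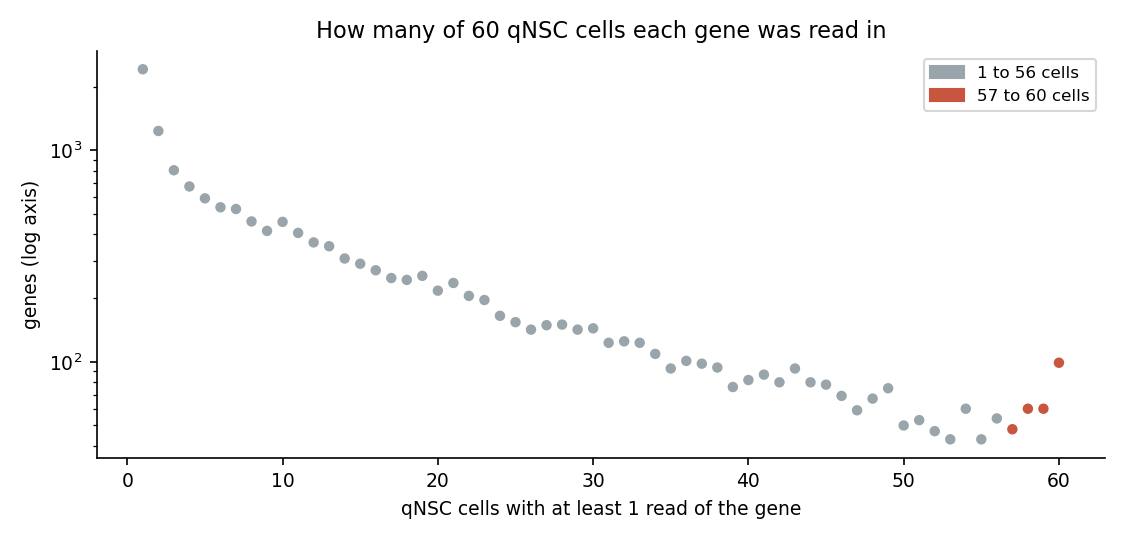
Number of genes (log axis) against the number of qNSC cells with at least 1 read of the gene, of 60 cells. The count falls from 2418 genes in 1 cell and turns up at the right end, where 267 genes (red) were read in 57 to 60 cells and 99 in all 60.

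Of the 99 genes read in every qNSC cell, 78 were also read in all 18 aNSC cells and 56 in all 11 IPC cells. A total of 353 genes were read in all 18 aNSC cells and 500 in all 11 IPC cells, counts that also depend on the smaller number of cells. No gene of the 99 was missing from most aNSC cells, while 10 were read in under 50% of IPC cells. These 10, named after their values were seen, were Ramp1 (0 of 11 IPC cells), Bcan and Nkain4 (1 each), Htra1 and Naaa (2 each), Fxyd1 (3), Cspg5 (4), and Gja1, Mlc1 and Pla2g7 (5 each). Gja1 encodes connexin 43, the gap junction protein of astrocytes, Bcan and Cspg5 encode proteoglycans, and Htra1 encodes a secreted serine protease. At a threshold of 10 reads the number was 17.

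Respiration and antioxidant genes had the largest shares of members read in nearly all cells among the lists of gene functions. Over all 6566 genes read in at least 20% of cells, 267 (4.07%) reached 57 cells. Nuclear genes of respiration had 15 of 34 members there, with Cox8a at 2085 TPM, Ndufa4 at 1771 TPM and Cox6a1 at 1584 TPM, subunits of the respiratory chain. Glycolysis had 8 of 22, led by Aldoc, Ldhb (2606 TPM), the lactate dehydrogenase subunit of oxidative tissue, and Aldoa (2029 TPM). Antioxidants, metallothioneins and iron genes had 12 of 27, led by Mt1, Gstm1 and Gstm5. Lysosomal and endosomal membrane genes had 11 of 30, led by Cd81, Cd63 and Cd9 (1935 TPM), and secreted and matrix proteins had 10 of 30, led by Cst3, Cpe and Mfge8.

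Astrocyte functions were read in part of their lists. Glutamate and GABA handling had 5 of 25 members in nearly all cells. The highest levels of the list were those of Slc1a3 (2877 TPM, 60 cells), the glutamate transporter GLAST, Glul (561 TPM, 58 cells), glutamine synthetase, and Slc7a10 (484 TPM, 51 cells), a serine transporter. Gap junction and ion transport genes had 6 of 20, led by Cldn10, Gja1 (1550 TPM) and Fxyd1 (1152 TPM), a regulator of the sodium pump. Fatty acid oxidation had 3 of 25, and the highest levels of the list were those of the acyl-CoA ligases Acsl3 (823 TPM, 60 cells), Acsbg1 (696 TPM, 58 cells) and Acsl6 (477 TPM, 55 cells). Lipid carriers had 4 of 22, and their summed level was a median of 7.34% of all TPM (3.81 to 13.7%), led by Apoe, Clu and Dbi.

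Most ribosomal protein genes were read in part of the cells only. Of 76 cytosolic ribosomal protein genes, 1 (Rps29, read in 59 cells at 630 TPM) reached 57 cells. The median member was read in 41.5 cells and had 110 TPM, and all 76 together held a median of 1.48% of TPM (0.659 to 3.77%). Over the 6566 genes read in at least 20% of cells, 4.07% reached 57 cells, and 1 of 76 is near that share. The median gene of the 6566 was read in 24 cells and had 0 TPM. The typical ribosomal protein gene was thus read more widely than that. The median respiration gene had 551 TPM. Translation factors had 3 of 28 members in nearly all cells, led by Eif1 (1436 TPM), Eif5a (404 TPM) and Eef1a1 (296 TPM). Many ribosomal protein genes have processed copies in the genome, and reads divided among copies can lower the counts of the gene. The part of this in the counts was not tested.

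Mitotic genes were near absence, while some genes of DNA replication and G1 were read in part of the cells. Of 28 mitotic genes, 12 had no read in any qNSC cell, among them Mki67 and Top2a, and the most widely read, Smc4, which was picked after its value was seen, had a read in 18 cells. Cdk1, the kinase that drives entry to mitosis, had a read in 1 cell. For a count of 0 in 60 cells the exact 95% interval reaches 5.96% of cells with a read. DNA replication genes had a median of 5 cells, led by Pcna (32 cells, median 2.34 TPM), the sliding clamp, and Slbp (30 cells, median 0.35 TPM). At least 10 reads were found for Pcna in 27 cells, up to 867 TPM, and for Slbp in 21, up to 487 TPM. Ccnd2 and Cdk4, which act in G1, were each read in 36 cells, at medians of 8.03 and 3.43 TPM over all cells. They had at least 10 reads in 31 and 28 cells and reached 175 and 814 TPM.

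Most genes of the signalling lists were read in part of the cells only. Over the 6566 genes read in at least 20% of cells, the share that reached 57 cells was 4.07%. None of 33 Notch and BMP genes reached 57 cells, which for a list of this size is near that share. The highest in level were the Notch targets Hes5 (35 cells, 73.6 TPM) and Hes1 (40 cells, 11.7 TPM), and Lfng (46 cells, 10.2 TPM), which modifies Notch. None of 24 Wnt genes reached 57 cells either, again near that share, and Dkk3, Tcf7l2 and Fzd2 led at 132, 7.10 and 2.22 TPM. Of 36 stem cell transcription factors 4 did, led by Hopx, Id2 (960 TPM) and Id4 (605 TPM), inhibitors of basic helix-loop-helix factors. Of 29 receptors 3 did, Gpr37l1 (2924 TPM), S1pr1 (1116 TPM) and Ntrk2 (346 TPM), the last being the receptor of BDNF. A receptor or factor below the reach of a single cell's library is read as 0 here, so these counts show detection, not which cells express a gene.

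**Figure D3:**
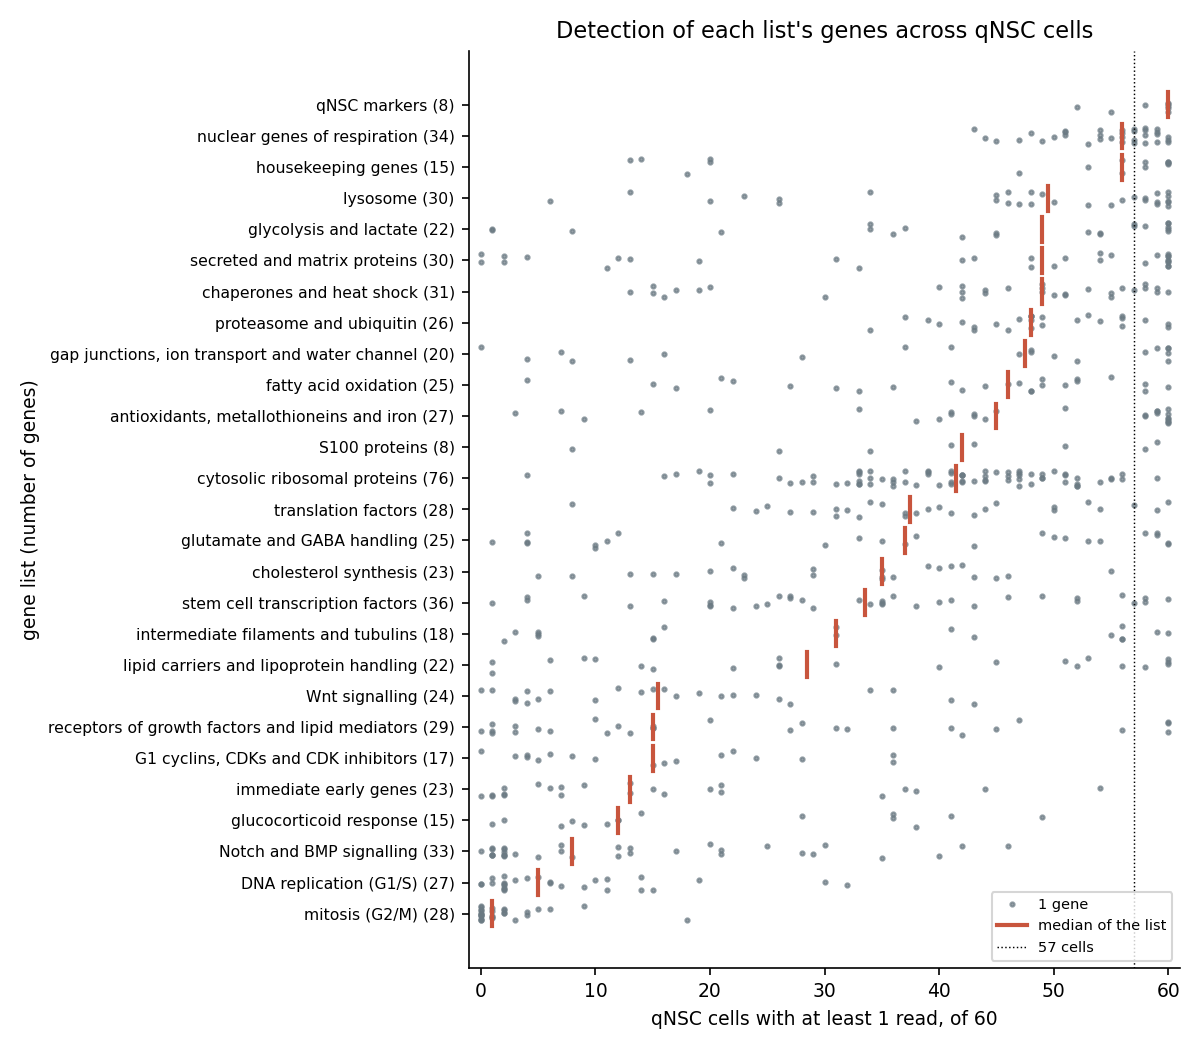
Number of qNSC cells (of 60) with at least 1 read, 1 point per gene, for each list of genes, with the list median in red and a dotted line at 57 cells. Respiration genes lie close to the right edge, ribosomal protein genes around 41.5 cells, and mitotic genes at the left edge.

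Variation between cells was measured as the SD of log2(CPM + 1) over the 60 cells, minus the median SD of genes of similar mean. Here it is called excess. Genes read in at least 54 cells (424 genes) and genes read in 12 to 53 cells (6142 genes) were ranked apart, as graded and on/off variation. In the first group the 20 highest ran from 2.25 (Serpine2) to 0.81 (Dazap2), with the next gene at 0.79. Of these 20, 13 were read in only 54 to 56 cells, so that a few cells at 0 weigh on their SD.

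Serpine2 and Sparc had the highest graded excess. Serpine2, a secreted inhibitor of thrombin and urokinase, was at 0 in the lowest cell, at 1743 TPM in the median and at 6541 TPM in the highest. It was read in 55 cells, all with at least 10 reads, and its SD of 3.26 over all cells was 1.39 over the cells with a read. Serpine2 thus had no read in 5 cells and a moderate spread over the others. F3 (excess 1.03), which encodes tissue factor, the trigger of coagulation, behaved alike in number (55 cells, 0 to 5821 TPM, median 1084), with SD 3.19 and 1.41. Sparc, a collagen-binding matrix protein, ran from 0 to 2374 TPM with a median of 521. Its SD was 4.14, and 3.37 over the 54 cells with a read, since 9 of those cells had fewer than 10 reads. Vcam1 (excess 1.05), an adhesion molecule of quiescent stem cells, had a median of 150 TPM (0 to 1004) and SDs of 3.59 and 2.94.

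Between Sparc and Vcam1 in excess, from 1.43 to 1.07, stood 6 genes. Sepp1 (selenoprotein P) had a median of 711 TPM, Car2 (carbonic anhydrase) 837 TPM and Tmx2 (a thioredoxin-like membrane protein) 507 TPM. Msmo1, a cholesterol-synthesis enzyme, had 1110 TPM (0 to 4186), Elovl5, a fatty acid elongase, 391 TPM and Acsl6 477 TPM. The other members were Cldn10, Rnf13, Gstm5, Adk, Saraf, Hnrnpk, Hspa8, Smpdl3a, Arf1 and Dazap2, with excesses from 0.81 to 0.97. When the SD was taken over cells with a read, Sparc, Vcam1, Arf1 and Rnf13 remained among the leading 20, and the other 16 did not. Serpine2 and F3 were among the leading 20 in 7 of the 9 alternative settings, more than any other graded gene.

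On/off genes with the highest excess were mostly transporters, enzymes and secreted regulators. Slc39a12, a zinc importer, led with an excess of 0.99. It was read in 44 cells, with a median of 642 TPM in those cells and 0 in the other 16. Kcnk1, a potassium leak channel, was read in 34 cells (322 TPM in cells with a read), Slc38a3, a glutamine transporter, in 43 (319 TPM) and Gabrg1, a GABA receptor subunit, in 35 (135 TPM). Hsd11b1, which regenerates active glucocorticoid, was read in 49 cells, with 1862 TPM in those cells and up to 6613. It was the most abundant gene of this list, yet it had no read in 11 cells.

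Enzymes of lipid metabolism made up a further part of the on/off list. Idi1 and Hmgcs1, enzymes early in cholesterol synthesis, were read in 42 and 41 cells, and 32 cells had at least 10 reads of both. Crot, which moves medium-chain acyl groups out of peroxisomes, was read in 45 cells, and Cyp7b1, an oxysterol hydroxylase, in 39. Over all 21 cholesterol-synthesis genes read in at least 20% of cells, 184 of 210 gene pairs had a positive rank correlation over the 60 cells, with a median of 0.16. The median over all pairs of 2473 widely read genes was 0.02. These correlations are weak and share the cells' depth, and are given as a description.

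Secreted regulators and signalling genes included the 3 rarest of the list. Igfbp2, which binds insulin-like growth factors, was read in 19 cells (825 TPM in those cells, up to 3467), Frzb, a secreted Wnt antagonist, in 16 (485 TPM), and Cd38, an enzyme that consumes NAD, in 25 (278 TPM). Nnat, neuronatin, was read in 46 cells (1042 TPM). Fos, an immediate early gene, was read in 35 cells at a median of 10.2 TPM in those cells, but reached 7864 TPM in the highest. Its SD over cells with a read, 4.31, headed the on/off list by that measure, so that Fos varied across the full scale and not only by presence. The remaining members were Maob, Dkk3, Ednrb, Pfn2, Pfkp and Agt.

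The evenest genes formed the other end. Among genes with at least 10 reads in all 60 cells, those with the lowest excess included Fxyd1, H3f3a, Rn45s, Atp1b2, Ctsb, Ntrk2, Cspg5, Tecr and Sep15, with values from -1.47 to -0.31. Tecr, a reductase of very-long-chain fatty acid synthesis, ran from 563 to 3759 TPM, a 6.67-fold range over 60 cells. Ctsb (the protease cathepsin B) spanned 7.89-fold. The excess is relative to genes of similar mean, and other genes named here spanned more, with 34.9-fold for Fxyd1, 59.3-fold for Sep15 and 67.0-fold for Atp1b2. Apoe, at 6.21-fold, was as even although it was not chosen for it, while Hopx spanned 684-fold.

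**Figure D4:**
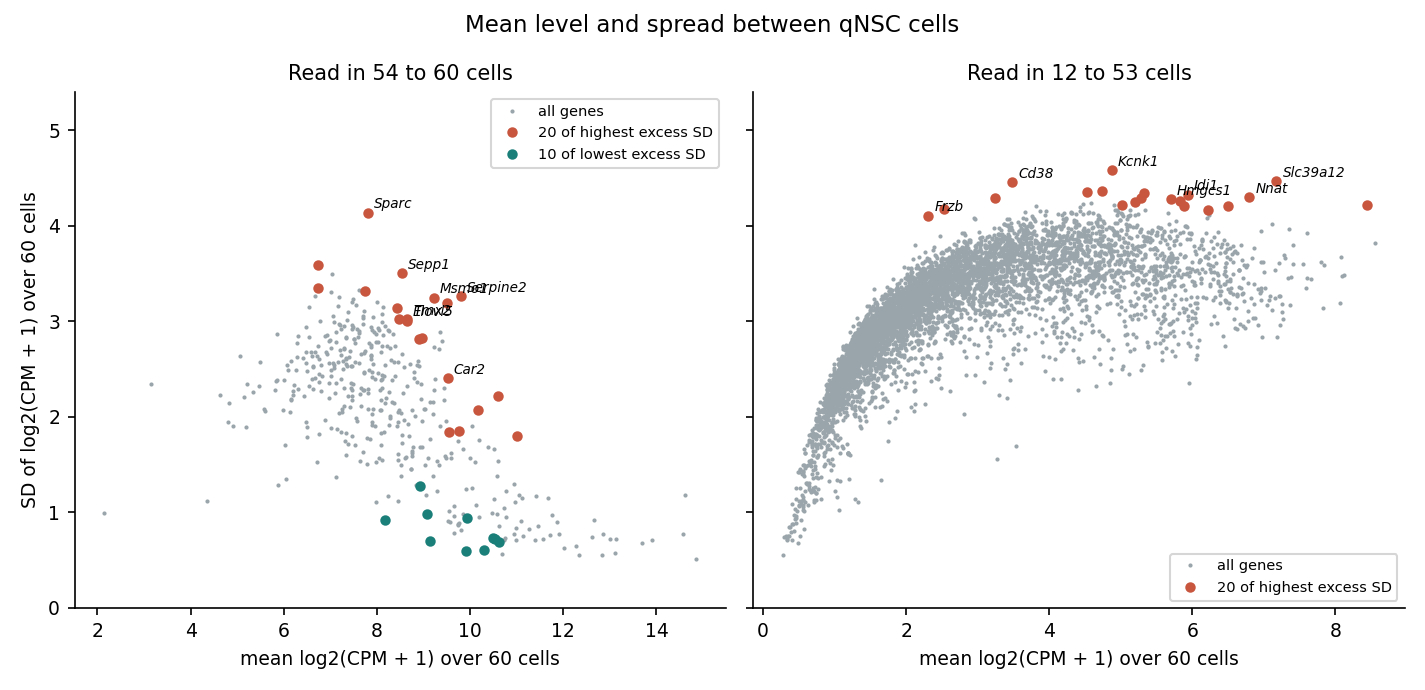
SD against mean of log2(CPM + 1) over 60 qNSC cells, 1 point per gene, for genes read in 54 to 60 cells (left) and in 12 to 53 cells (right). Red points are the 20 genes with the highest excess over genes of similar mean in each panel, led on the left by Serpine2 and on the right by Slc39a12, and green points are the 10 evenest genes.

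Hopx varied together with a small set of genes. Rank correlations with Hopx were computed over the 60 cells for 2472 genes read in at least 50% of cells, with 1st and 99th percentiles of -0.46 and 0.44. The highest was Fabp7, the brain fatty acid binding protein of radial glia, at 0.81, with Dbi at 0.75, Tuba1a, a tubulin, at 0.55 and Arf5, a small GTPase of vesicle traffic, at 0.51. Fabp7 ran from 0 to 16965 TPM with a median of 670 TPM. It had at least 10 reads in 50 cells, all of which also had at least 10 of Hopx, and 9 cells had Hopx without Fabp7. Fabp7 and Dbi both bind fatty acid or its CoA ester.

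Genes at the other end, added after their values were seen, were Hacd2 at -0.76, F3 at -0.70, Bcan at -0.62, Gpr37l1 at -0.61 and Serpine2 at -0.59. Hacd2 encodes a dehydratase of very-long-chain fatty acid synthesis and Gpr37l1 an orphan receptor of astrocytes. Hacd2 had a median of 174 TPM (0 to 1594) and at least 10 reads in 49 cells. All 60 cells had at least 10 reads of Fabp7 or of Hacd2, and 39 had both, so the genes overlap and do not mark separate sets of cells. Fabp7 and F3 likewise were both present in 45 cells.

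These relations had the same sign in both ages. For Fabp7 the rank correlation with Hopx was 0.82 over 32 cells of 2 months and 0.80 over 28 cells of 4.5 months, for Hacd2 it was -0.74 and -0.75, and for F3 -0.61 and -0.77. It was weaker at 4.5 months for Bcan (-0.77 and -0.50), Gpr37l1 (-0.72 and -0.43) and Serpine2 (-0.68 and -0.45). Without the 2 cells farthest from the median in Hopx, Fabp7 had 0.81 and Hacd2 -0.73, and Pearson's correlation for Fabp7 was 0.68 with them and 0.71 without. On cells thinned to one depth the rank correlation for Fabp7 was 0.79. The cells share library depth, and Hopx had a rank correlation of -0.01 with total counts and -0.02 with genes read. No p-value is given, since cells of one animal are not independent.

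Markers of other types moved with Hopx to some degree. The mean level of the 15 astrocyte markers had a rank correlation of -0.40 with Hopx and 0.53 with F3. The mean of the 14 progenitor and neuroblast markers had 0.46 with Hopx and -0.62 with F3, although it was low throughout, at a median of 0.57 and a highest value of 1.56 on the log2(CPM + 1) scale. Only 1 of these 14 markers, Stmn1 (43 cells), was read in at least 20% of qNSC cells. The median member was read in 1.5 cells, so this mean rests largely on Stmn1. The part of either cell type in the pattern was not tested.

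**Figure D5:**
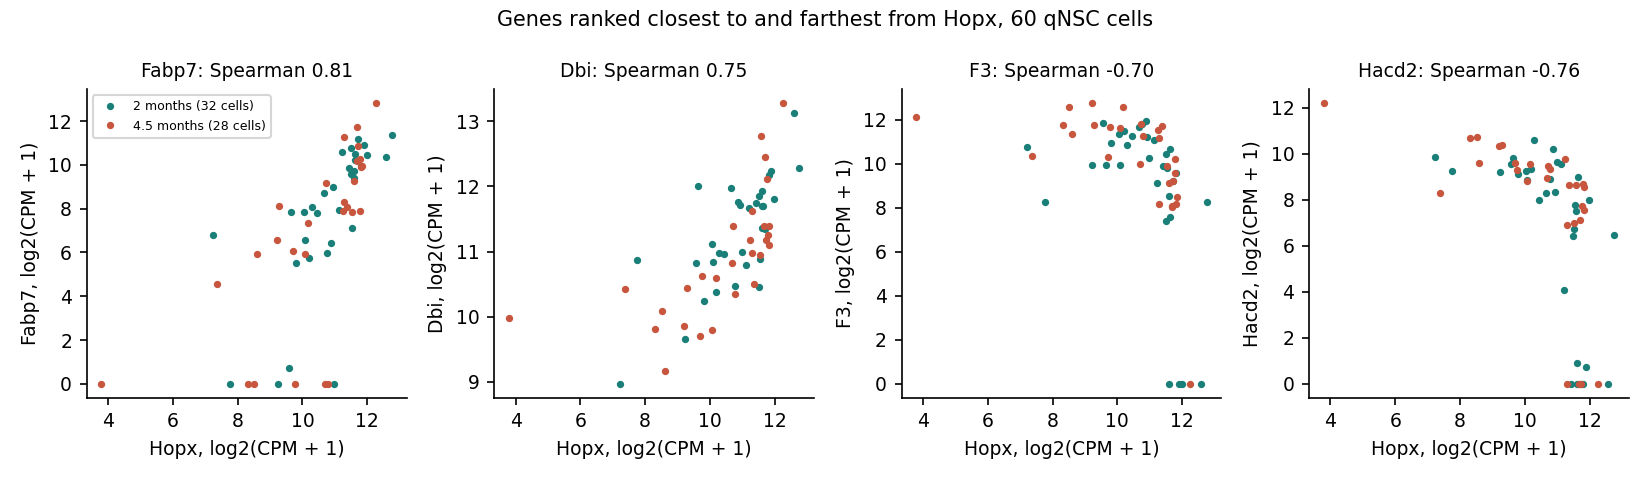
Log2(CPM + 1) of Fabp7, Dbi, F3 and Hacd2 against that of Hopx, 1 point per qNSC cell, colored by age (32 cells of 2 months, 28 cells of 4.5 months). Fabp7 and Dbi are high where Hopx is high and F3 and Hacd2 are low there, with both ages spread along the same course.

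Because Hopx and Fabp7 moved together and F3 and Hacd2 moved the other way, the 250 bases upstream of their annotated starts were taken from RefSeq (mouse build GRCm38.p6). Capitals mark matches on either strand to 3 short motifs. The CCAAT box (letters CCAAT) binds NF-Y, the SOX core (ACAAT) binds SOX factors, and the RBPJ core (TGGGAA) binds the effector of Notch. Hopx has a pair of listed starts on chromosome 5, chr5:77115124-77115373 and chr5:77095268-77095517, both on the minus strand. Fabp7 lies at chr10:57784673-57784922 on the plus strand, F3 at chr3:121723287-121723536 on the plus strand, and Hacd2 at chr16:35022171-35022420 on the plus strand.
Hopx, first start: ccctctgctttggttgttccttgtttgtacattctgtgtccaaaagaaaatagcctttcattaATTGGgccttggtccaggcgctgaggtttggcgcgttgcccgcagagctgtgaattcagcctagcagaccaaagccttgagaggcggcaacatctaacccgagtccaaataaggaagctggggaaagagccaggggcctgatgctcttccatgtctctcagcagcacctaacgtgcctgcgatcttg
Hopx, second start: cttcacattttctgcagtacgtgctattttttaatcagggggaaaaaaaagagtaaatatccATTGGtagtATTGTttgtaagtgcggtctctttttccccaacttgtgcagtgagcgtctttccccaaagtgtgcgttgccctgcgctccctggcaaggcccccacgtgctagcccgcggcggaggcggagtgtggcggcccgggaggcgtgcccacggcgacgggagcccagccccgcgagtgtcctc
Fabp7: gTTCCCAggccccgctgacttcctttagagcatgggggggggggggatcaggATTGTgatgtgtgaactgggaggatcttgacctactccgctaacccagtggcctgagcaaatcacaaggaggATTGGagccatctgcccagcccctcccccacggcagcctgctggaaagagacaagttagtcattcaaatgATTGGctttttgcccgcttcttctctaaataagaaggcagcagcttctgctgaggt
F3: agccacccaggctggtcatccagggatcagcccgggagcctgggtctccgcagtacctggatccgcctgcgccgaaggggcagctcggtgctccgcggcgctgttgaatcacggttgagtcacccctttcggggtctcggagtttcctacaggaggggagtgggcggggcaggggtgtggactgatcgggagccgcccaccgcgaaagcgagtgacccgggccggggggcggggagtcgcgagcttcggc
Hacd2: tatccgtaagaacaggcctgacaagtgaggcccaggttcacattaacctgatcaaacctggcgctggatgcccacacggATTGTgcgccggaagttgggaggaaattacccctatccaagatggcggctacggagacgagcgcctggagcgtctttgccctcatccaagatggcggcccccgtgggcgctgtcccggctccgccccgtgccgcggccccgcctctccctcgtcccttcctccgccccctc
A CCAAT box on the reverse strand begins at -187 and -188 in the Hopx sequences and at -126 and -56 in that of Fabp7, counted from the start site. Fabp7 also holds a SOX core at -198 and an RBPJ core at -249, the second Hopx start a SOX core at -179, and Hacd2 a SOX core at -171. None of the 3 motifs is in the F3 window. The motifs did not divide the genes by the sign of their relation to Hopx. Gpr37l1 and Bcan, on the negative side, hold 2 CCAAT boxes and 1, and Arf5, on the positive side, holds no match. Over all 32851 promoters of the table, 33.8% hold a CCAAT box in the same window, 27.7% a SOX core and 21.6% an RBPJ core, so each match is common. A match is only a run of letters.

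A second set of variable genes was opposed within itself. Sparc and Nnat had a rank correlation of 0.70 over the 60 cells. Kcnk1 had -0.72 with Sparc and -0.46 with Nnat, and Pfkp, the platelet type of phosphofructokinase, had -0.70 and -0.64. Every cell had at least 10 reads of Sparc or of Kcnk1: 29 had only Sparc, 15 only Kcnk1 and 16 both. Igfbp2 was nested in this pattern, since all 16 cells with at least 10 reads of Igfbp2 also had Kcnk1, and 4 of the 16 had Sparc. Within the ages the correlation of Sparc and Kcnk1 was -0.75 and -0.71. Over all pairs of 2473 widely read genes, the 1st and 99th percentiles were -0.31 and 0.35. These pairs were picked as the extremes of 861 pairs, and Sparc and Kcnk1 had rank correlations of -0.30 and 0.34 with the number of genes read.

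Frzb went with Hopx and Fabp7. Its rank correlation was 0.66 with Fabp7, 0.61 with Hopx, -0.70 with F3 and -0.70 with Serpine2. All 14 cells with at least 10 reads of Frzb had at least 10 of Fabp7, and 9 of the 14 had F3. F3 and Serpine2 moved together at 0.67.

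The deposited annotation gives each cell a colour code whose meaning is not stated, and the 60 qNSC cells carry 3 codes. They hold 26 cells (13 of each age), 25 cells (15 of 2 months, 10 of 4.5 months) and 9 cells (4 and 5). Frzb had at least 10 reads in 13 of the 25 cells, 1 of the 26 and 0 of the 9. Slc39a12 had at least 10 reads in 25 of the 26, 11 of the 25 and 8 of the 9, and Kcnk1 in 20, 7 and 4. If the codes were drawn from these expression values, such differences were built in, so they are given without a test. The correlation of Hopx and Fabp7 was 0.65 within the 26 cells, 0.73 within the 25 and 0.57 within the 9. Other relations with Hopx were weaker in some of the codes. Serpine2 had -0.12 within the 26 cells, -0.75 within the 25 and -0.17 within the 9, F3 had -0.43, -0.67 and -0.53, Bcan -0.54, -0.55 and -0.17, and Arf5 0.65, 0.04 and 0.68.

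Against the other classes the qNSC cells had higher levels of their abundant genes. How the classes were made is not stated, and if they rest on these values the differences were built in, so they are a description. A gene was taken as higher when its mean log2(CPM + 1) differed by at least 1 and its summed CPM by at least 2-fold. Of 8878 genes compared with aNSC, 4.57% were higher in qNSC and 24.1% lower, and of 8502 genes compared with IPC, 14.4% were higher and 34.9% lower. Of the 25 most abundant genes 17 were higher than in aNSC and none lower, and 23 were higher than in IPC and 1, Ppia, lower. Of the 267 genes read in nearly all cells, 60 were higher and 5 lower against aNSC, and 124 and 23 against IPC. The shares of higher genes lie above the background, but both sets were chosen for high reads in qNSC cells and this direction is partly fixed by that choice.

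The aNSC class itself was mixed. At least 50% of the markers of another type passed in 9 of its 18 cells, of oligodendrocyte precursors in 7 of them. Without such cells, 10 of the 25 abundant genes were higher than in aNSC in place of 17. Hopx had a median of 341 TPM in aNSC (0 to 8863) and of 172 TPM in IPC cells (0 to 1450). Its difference to aNSC in mean log2(CPM + 1) was 4.73, and 1.05 without those cells, where the ratio of summed CPM was 1.23 and the rule was no longer met. Cst3 had a median of 12467 TPM in aNSC (1858 to 26913) and 3057 TPM in IPC cells (1097 to 7443), and no IPC cell reached the lowest qNSC cell. Dbi, at 11269 TPM in aNSC, did not differ by the rule between qNSC and aNSC.

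Gene groups are read here against all genes compared. Of these, 24.1% were lower and 4.57% higher than in aNSC, and 34.9% were lower and 14.4% higher than in IPC. Of 75 ribosomal protein genes compared with aNSC, 24 were lower in qNSC and none higher. Without the cells with other-type markers, 43 were lower. Against IPC 75 of 76 were lower. Translation factors were lower in 8 of 28 against aNSC and in 18 of 28 against IPC. The median differences lay further below those of all genes. They were -1.80 against aNSC and -3.25 against IPC for ribosomal protein genes, and -1.50 and -2.84 for translation factors. DNA replication genes were lower in 19 of 22 against aNSC (11 of 18 without the cells with other-type markers) and in 27 of 27 against IPC. Only 6 of the 27 replication genes were read in at least 20% of qNSC cells. The others compared entered through the other class, so their direction was largely fixed by that rule. The shares of all genes lower are raised in the same way. Of the 6566 genes read in at least 20% of qNSC cells, 1026 were lower than in aNSC and 1607 lower than in IPC. This is the closer base for ribosomal protein genes and translation factors, of which 75 of 76 and 27 of 28 were read that widely. Both lists had larger shares of lower genes than this base. Glutamate and GABA handling was higher in 12 of 21 against aNSC (8 of 20 without those cells) and 17 of 20 against IPC. Lysosomal genes were higher in 0 of 29 and 17 of 29, and respiration genes in 0 of 34 in both, with 1 lower in each. Against aNSC, a count of 0 higher is near the 4.57% of all genes for lists of this size. The median differences of respiration genes were -0.22 and -0.35, against -0.80 and -0.92 over all genes compared.

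Between the ages few of the abundant and variable genes differed by the same rule. Of 7247 genes compared within qNSC cells, 8.1% were higher at 2 months and 3.81% lower, with a median difference of 0.22. None of the 25 abundant genes, the 8 markers or the 20 graded genes met it, and of the 267 genes read in nearly all cells 1 was higher and none lower. A difference below the rule does not show equal levels. Hopx had a median of 3414 TPM at 2 months (269.7 to 10802) and 3249 TPM at 4.5 months (15.8 to 6978). Apoe had 40079 TPM at 2 months (16067 to 67900) and 46737 TPM at 4.5 months (22231 to 99805). The ranges overlap over most of their length for both genes.

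Frzb was the single on/off gene that met the rule. It had at least 10 reads in 10 of 32 cells at 2 months and in 4 of 28 at 4.5 months, with highest values of 1056 and 442 TPM, and 0 TPM in most cells of both ages. Of the genes named from the lists, Hes5, Cdk4 and S100a10, a calcium-binding adaptor, were higher at 2 months and Vtn, the adhesion protein vitronectin, was lower. The difference of Vtn, -1.22, was -0.66 in the weakest setting and missed the rule in 2 settings. Hes5 had at least 10 reads in 24 of 32 cells at 2 months (median 157 TPM) and in 9 of 28 at 4.5 months (median 0 TPM), a difference of 3.11 in mean log2(CPM + 1). Without the 2 cells with other-type markers it was 3.03 and the ratio of summed CPM was 1.95, under the rule. Of 21 cholesterol-synthesis genes compared, 5 were higher at 2 months and none lower, with a median difference of 1.18. Over all 7247 genes compared, 8.1% were higher and 3.81% lower, with a median of 0.22. The median gene of the cholesterol list was read in 35 of 60 qNSC cells. Gfap had a read in all 32 cells at 2 months (median 257 TPM) and in 23 of 28 at 4.5 months (112 TPM), and it did not meet the rule. With 1 sample per age and the sexes divided between them, none of these values can be set against a spread between animals.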

How the data were processed

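Each of 89 samples is 1 cell sorted from the dentate gyrus. The authors deposited estimated counts by gene, the TPM (level per transcript length) by gene, and an annotation with the class and a colour code of each cell. Per the submitters' processing notes, STAR, RSEM and the build mm10 were used. How classes were assigned is not stated. Estimated counts were rounded to whole reads for detection (4.44% of nonzero values were not whole, tolerance 1e-06), which leaves genes with near-identical copies uncertain. The kit records no strand, so overlapping genes cannot be told apart.

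Counts were scaled to CPM and taken as log2(CPM + 1). With 1 sample per age and classes that may rest on these values, no test was run. Excess SD was taken against the median of 20 equal bins of the mean. Genes in comparisons were read in at least 20% of cells of either class. For thinned values, cells were thinned to 400000 reads and shallower cells left out. No doublet caller was run on sorted cells; 9 marker panels were counted instead. Named were the 8 markers, the 25 genes of highest median TPM, the 20 of highest excess in graded and in on/off variation, the 10 evenest, the 3 highest of each list with any member of excess above 1, and 5 genes closest to Hopx; predicted genes, pseudogenes, Y-linked genes, Xist and Tsix were left out as examples. The members and lists were chosen with earlier results of these data known. Promoter sequences come from RefSeq. Some genes that the naming rule picks are not reported here. The rule for differences, the excess SD and the thinning were tried on simulated data, and the other steps were not. In the graded ranking over all cells, genes simulated with raised spread had to show a positive excess. A place among the leading 20 was required of them only with the SD over cells with a read. Python 3.11.15, numpy 2.4.6, pandas 2.3.3 and scipy 1.17.1 were used.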

Additional observations from a re-analysis of the deposited data

How the results depend on the processing

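The list of the 25 most abundant genes was the same under all 4 alternatives run for it. The number of genes read in at least 57 cells, 267, was 163 at 10 reads and 424 at 90% of cells, and lay between 218 and 270 under the other 5 settings. The number read in all qNSC cells and few IPC cells, 10, was 17 at 10 reads. The ranking by variation depended most on the measure. Of the 20 leading graded genes, 8 were shared with the list from TPM, 4 with that from the squared coefficient of variation, 9 with that from thinned cells, 13 without the cells carrying markers of another type, 9 and 7 with 2 or 4.5 months alone, and 4 with the SD over cells with a read. Of the 20 on/off genes, 3, 1, 11, 13 and 3 were shared for TPM, the squared coefficient, 2 months, 4.5 months and cells with a read. With a pseudocount of 10, genes higher and lower in qNSC were 230 and 1035 against aNSC (406 and 2139 with 1), 775 higher against IPC (1228), and 138 and 49 between the ages (587 and 276). Of the 25 abundant genes, 10 in place of 17 were higher than in aNSC without cells with other-type markers. The correlation of Hopx and Fabp7, 0.81, was 0.65 and 0.57 within the colour codes of 26 and 9 cells and moved by less than 0.1 in the other 7 settings. The SD over cells with a read, the depth limit, the colour codes, the Hopx settings and the gene lists without cells with other-type markers were chosen after seeing the data. Of 183 differences of named genes that met the rule, 7 had the other sign in a setting, all against aNSC without the cells with other-type markers: Acsbg1 (2.82 to -0.30), Acsl6 (2.96 to -0.34), Dkk3 (2.37 to -0.77), Fzd2 (1.13 to -0.12), Olig1 (-2.21 to 1.62), Slbp (-1.69 to 0.05) and Vcam1 (1.48 to -0.05). No paired analysis was possible because no test was run and the labels give no animals. Depth limits what can be said of genes read in part of the cells, since a gene of few molecules can be missed in a cell.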
